A study of Mus musculus with 6 samples.

Results

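Cornified envelope and late differentiation genes were followed in mouse skin wounds in which β-catenin had been lowered or stabilized after the injury. The members were all genes whose array symbol begins with Sprr or Lce, together with the other structural proteins, cross-linking enzymes, proteases and secreted proteins of the outer epidermis, such as loricrin (Lor), involucrin (Ivl), cornifelin (Cnfn) and the transglutaminases Tgm1 and Tgm3. Of 54 such genes with a probe, 52 were measured, out of 10266 genes measured in all. A gene counted as measured if a probe had a detection p-value under 0.01 on at least 2 of the 6 arrays, and its brightest passing probe stood for it. Sprr3 and Lce1h passed on 0 arrays, with lowest detection p-values of 0.0684 and 0.17. Just inside the limit, Sprr2j-ps was detected on 3 arrays and Sprr2b on 4, and 47 members were detected on all 6. Flg and Hrnr had no singly annotated probe in the annotation used here.

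As keratinocytes reach the skin surface they stop dividing, cross-link a protein shell under the plasma membrane and die as flattened corneocytes. Transglutaminases join loricrin, involucrin, the small proline-rich (Sprr) proteins and the late cornified envelope (Lce) proteins into that shell, and kallikrein proteases later cut the junctions that hold the dead cells together. Most of these genes lie side by side in the epidermal differentiation complex, and here 34 of the 52 measured members were on chromosome 3. Sprr genes are known to be induced in wounded and stressed epidermis, whereas loricrin and the Lce1 genes are typical of normal cornification.

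RNA came from full thickness wounds of the back skin of C57/BL6 mice, harvested on day 8 after injury, and each sample was read on 1 single-colour Illumina bead array. The knockdown wounds (2 arrays) were from tamoxifen-treated mice of 5 months with loxP sites around exons 2 to 6 of the β-catenin gene and a Cre-Esr1 transgene. The tamoxifen control wounds (2 arrays) were from tamoxifen-treated mice of 4 months with the same floxed alleles and no Cre listed. The stabilized wound (1 array) was from a mouse of 2 months with loxP sites around exon 3 that received an adenovirus carrying Cre, and the GFP control wound (1 array) from a mouse of the same age and genotype that received an adenovirus carrying green fluorescent protein. The labels name neither the promoter that drives Cre-Esr1 nor the cells the virus reached, and age and genotype cannot be told apart in the tamoxifen model. In whole wounds, fewer keratinocytes and less RNA per keratinocyte cannot be told apart.

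Between 15883 and 16681 probes were detected per array, and the GFP control array was the dimmest, with a mean intensity of 544.4 against 648.7 to 714.8 on the others. The brightest of 4 Ctnnb1 probes read 11.74 and 11.86 (log2) in knockdown wounds, against 11.78 and 12.09 in tamoxifen controls. It read 11.50 in the stabilized wound, against 11.58 in the GFP control. Knockdown differences at its remaining 3 probes were 0.18, -0.24 and 0.05, and those of the stabilized wound were -0.82, -0.03 and -0.70. Whether any of them reads the removed exons was not analysed here, so they do not check the labels. Keratinocyte markers were detected on every array. Of 13 basal keratinocyte markers 11 were measured, and all 11 were detected on all 6 arrays. Of 11 suprabasal markers 9 were measured, and 7 of them were detected on all 6 arrays. Tamoxifen control replicate 2 stood apart in hair genes: the median of 11 measured hair shaft and inner root sheath genes, relative to the 6-array mean, was 0.45 and -1.17 (log2) in the knockdown, against -0.43 and 2.86 in the tamoxifen controls.

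Promoter sequence is shown for 6 Sprr genes, because most of the family had low readings together in the knockdown while Sprr2a1 did not. The sequences are RefSeq windows of the mouse assembly GRCm38.p6, each of 190 bases ending 16 bases before the annotated start, 5′ to 3′ along the gene. Capitals mark matches to 3 short motifs on either strand, none of which overlap: the AP-1 motif TGANTCA, the octamer ATTTGCAT and the TATA box TATAAA.
Sprr2d (chr3:92338935-92339124, + strand): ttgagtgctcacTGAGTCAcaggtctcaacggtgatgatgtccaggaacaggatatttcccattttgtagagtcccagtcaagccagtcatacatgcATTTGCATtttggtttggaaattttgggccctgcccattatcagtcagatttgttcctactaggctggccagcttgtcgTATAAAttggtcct
Sprr2i (chr3:92407786-92407975, + strand): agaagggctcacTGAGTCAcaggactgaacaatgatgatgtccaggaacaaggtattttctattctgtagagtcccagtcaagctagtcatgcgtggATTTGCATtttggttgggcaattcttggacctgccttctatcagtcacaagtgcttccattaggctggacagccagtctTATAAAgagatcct
Sprr2k (chr3:92432377-92432566, + strand): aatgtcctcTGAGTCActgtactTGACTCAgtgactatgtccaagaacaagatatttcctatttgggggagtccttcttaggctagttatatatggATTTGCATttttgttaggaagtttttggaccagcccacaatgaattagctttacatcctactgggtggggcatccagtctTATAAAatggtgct
Sprr2a1 (chr3:92215630-92215819, + strand): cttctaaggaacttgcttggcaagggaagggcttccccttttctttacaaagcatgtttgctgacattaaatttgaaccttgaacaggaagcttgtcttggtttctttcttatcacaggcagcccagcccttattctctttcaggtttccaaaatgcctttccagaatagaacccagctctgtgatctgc
Sprr1a (chr3:92485897-92486086, - strand): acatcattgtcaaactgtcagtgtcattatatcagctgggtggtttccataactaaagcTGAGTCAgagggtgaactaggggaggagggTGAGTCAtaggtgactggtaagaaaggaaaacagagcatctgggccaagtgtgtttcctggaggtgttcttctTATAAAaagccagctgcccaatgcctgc
Sprr1b (chr3:92438795-92438984, - strand): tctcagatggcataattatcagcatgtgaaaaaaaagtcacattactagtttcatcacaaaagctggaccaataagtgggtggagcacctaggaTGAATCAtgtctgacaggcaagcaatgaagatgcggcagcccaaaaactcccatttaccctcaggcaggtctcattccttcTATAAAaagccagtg

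Promoter entries, each from 250 bases before to 50 after the start, matched 46 of the 52 measured members. The first entry listed for a member stood for it, whereas the shares over all windows counted every entry. Any other start of Sprr2a1 was not examined. Among the 8 Sprr2 genes with an entry, 7 held the AP-1 motif, the octamer and the TATA box, and Sprr2a1 held none of them. In those 7 genes the octamer began 108 to 112 bases and the TATA box 29 bases before the start. Of all 32851 promoter windows, 7.81% held the AP-1 motif, 1.74% the octamer and 13.6% the TATA box. Both Sprr1 promoters held the AP-1 motif and the TATA box without the octamer, while 0 of 10 Lce1 promoters and 0 of 5 Lce3 promoters held AP-1 or the octamer. Of the 46 members with an entry, 16 held the AP-1 motif (34.8%). Outside the Sprr family these were Lor, Ivl, Rptn, Flg2, Dmkn, Krtdap and Sbsn, whose knockdown differences lay between -0.20 and 0.04. The AP-1 motif thus also occurred in members that read close to the controls, and its relation to the readings was not tested. A match describes these letters in this window and no more.

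**Figure D1:**
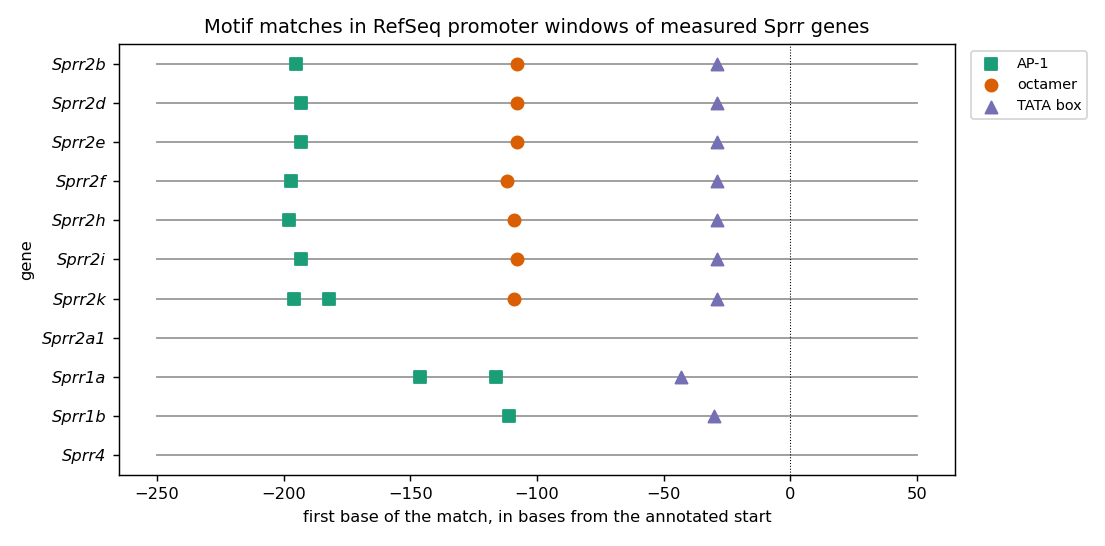
Positions of motif matches in the RefSeq promoter windows of 11 measured Sprr genes. The horizontal axis gives the first base of each match in bases from the annotated start; green squares are AP-1, orange circles the octamer and purple triangles the TATA box, which lie at similar distances in 7 Sprr2 genes and are missing from the windows of Sprr2a1 and Sprr4.

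Knockdown wounds had lower readings of most Sprr genes, Cnfn, both transglutaminases and Sfn than tamoxifen control wounds, while loricrin, involucrin, the Lce1 genes and the kallikreins read close to the controls. Of the 10 Sprr genes detected on every array 9 were lower, with a median log2 difference of -1.30, against 0.02 over all genes measured. Over the 13 measured Sprr genes the median was -1.26, against -0.12 over the 39 other members. Sprr2b and Sprr2j-ps, undetected on both knockdown arrays, passed the detection filter through the other arrays. Of all 52 members 39 were lower (75%), against 46.7% of all genes. No single gene passed: with limma over the 4 groups and Benjamini-Hochberg adjustment over all genes, 0 of 52 members and 0% of all genes had an adjusted p under 0.05, and the smallest adjusted p of a member was 0.191. At an unadjusted p under 0.05, 12 of 52 members (23.1%) were lower, against 4.4% of all genes, and 0 were higher, against 6.24% of all genes. Both knockdown arrays lay below both control arrays for 16 members (30.8%), against 18.8% of all genes, and above them for 0, against 24.8%. Fitted differences of at least 2-fold lower numbered 13 (25%), against 1.14% of all genes, and of at least 2-fold higher 0, against 1.95%. The 13 include Sprr2b, whose fold rests on background readings, and Sprr2i, undetected on 1 knockdown array. They also include Evpl and Sprr2f, at 0.013 and -0.055 without tamoxifen control replicate 1, and Psors1c2, at 0.079 without replicate 2. Among the 47 members detected on all arrays, 11 were at least 2-fold lower, against 0.833% of such genes, and 10 were lower at an unadjusted p under 0.05, against 4.74%. Evpl, Sprr2f and Psors1c2 are again among the 11. Without tamoxifen control replicate 1, 7 of the 52 measured members were at least 2-fold lower, and the share over all genes was not computed there. Among these 7, Psors1c2 and Sprr4 rest on control replicate 2, and without that array they differed by 0.079 and 0.86. The median over the 52 measured members was -0.22, which became -0.40 without tamoxifen control replicate 1 and -0.07 without replicate 2.

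The Sprr1 genes encode precursors of the cornified envelope that are rich in proline and glutamine. Sprr1a read 10.53 and 10.64 (log2 signal) in knockdown wounds, against 11.95 and 11.91 in tamoxifen controls. Sprr1b read 13.07 and 12.96 in knockdown wounds, against 14.52 and 13.90 in the controls. The groups did not overlap in either gene. The difference was -1.34 ± 0.13 (SE) for Sprr1a, a 2.54-fold lower signal, and -1.19 ± 0.23 for Sprr1b (limma, adjusted p = 0.191 and 0.218).

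The Sprr2 genes are a row of closely related neighbours, so that a probe may also bind the RNA of another copy. Sprr2d read 13.09 and 13.10 in knockdown wounds, against 15.01 and 14.01 in tamoxifen controls. Sprr2k read 6.96 and 7.53 in knockdown wounds, against 10.54 and 8.96 in controls. Sprr2i read 5.35 and 6.96 in knockdown wounds, against 11.12 and 8.65 in controls. In all 3 genes both knockdown arrays were the lowest, and control replicate 1 was the higher of the controls; without it the Sprr2d difference was -0.92. The differences were -1.42 ± 0.34 for Sprr2d, -2.51 ± 0.55 for Sprr2k and -3.73 ± 0.95 for Sprr2i (SE; limma, adjusted p = 0.268, 0.246 and 0.284). Sprr2i was not detected on knockdown replicate 1, so its size rests there on a reading in the background, and a second Sprr2k probe differed by -2.18.

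Sprr2h read 8.34 and 7.74 in knockdown wounds, against 9.34 and 8.83 in tamoxifen controls, a difference of -1.05 ± 0.28 (SE; limma, adjusted p = 0.321). Sprr2e read 8.60 and 7.73 in knockdown wounds, against 11.57 and 9.28 in controls, and differed by -2.26 ± 0.79. Sprr2g read 8.84 and 8.74 in knockdown wounds, against 10.94 and 9.16 in controls, and differed by -1.26 ± 0.58. All 3 had separate groups, but the sizes of the last pair rest on control replicate 1: without it Sprr2e differed by -1.12 and Sprr2g by -0.37. Sprr2b was not detected on either knockdown array and read 5.01 and 5.24 there, against 6.35 and 6.01 in controls. Set against the lowest detected signal, Sprr2b was at least 1.13-fold lower, and the fit, which uses the background readings, gave adjusted p = 0.191.

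Sprr2f, Sprr2j-ps, Sprr4 and Sprr2a1 had groups that overlapped. Sprr2f read 6.89 and 6.31 in knockdown wounds, against 9.63 and 6.66 in tamoxifen controls, a difference of -1.54 ± 0.97 (SE) in which control replicate 1 alone was high, and without it the difference was -0.055. Sprr2j-ps, annotated as a pseudogene, was not detected on either knockdown array or on control replicate 2, so no direction is given for it in the knockdown. Sprr4 was read at 9.31 and 9.53 in knockdown wounds, against 8.56 and 12.13 in controls, high on the array that was also high in hair genes, and without that array it differed by 0.86. Sprr2a1, for which RefSeq lists further near copies named Sprr2a2 and Sprr2a3, read 9.03 and 9.56 in knockdown wounds, against 8.81 and 9.49 in controls, a difference of 0.14 ± 0.30.

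**Figure D2:**
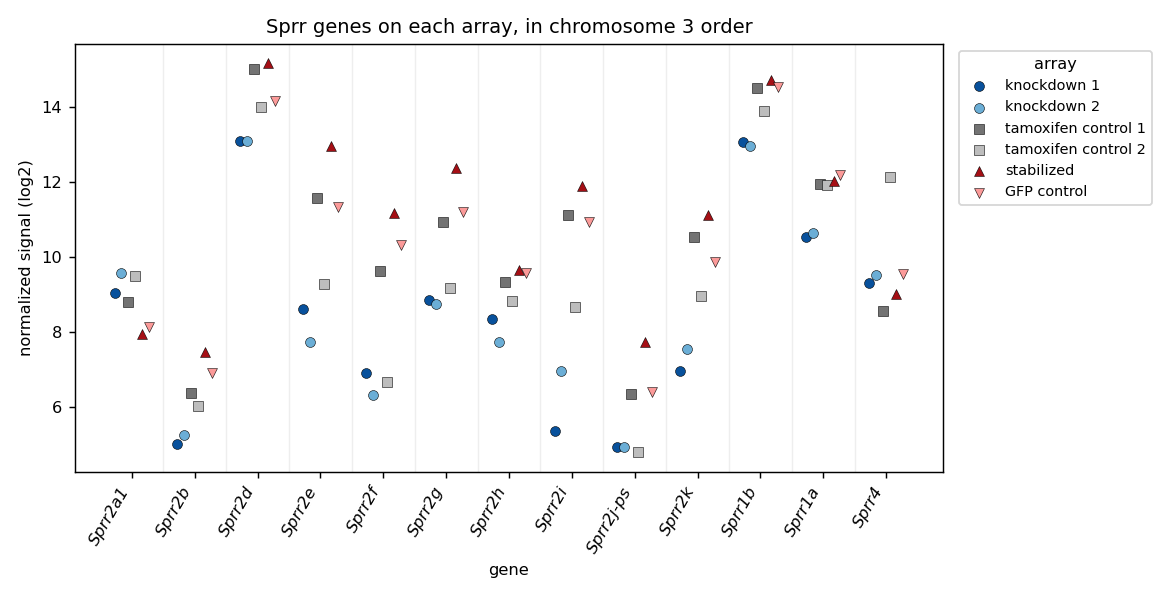
Normalized signal (log2, vertical axis) of the 13 measured Sprr genes on each of the 6 arrays, with genes in their order on chromosome 3 and 1 symbol per array (circles knockdown, squares tamoxifen control, upward triangle stabilized, downward triangle GFP control). From Sprr2b to Sprr1a the circles lie lowest in most genes and the stabilized array is highest in most Sprr2 genes, while Sprr2a1 and Sprr4 differ from that order.

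The Lce1 and Lce3 subfamilies are described separately, and the difference between them was not tested. The 11 measured Lce1 genes had a median log2 difference of 0.03, ranging from -0.03 to 0.33, and their knockdown and control arrays overlapped in every case. Lce1c, for example, read 13.28 and 13.67 in knockdown wounds, against 13.18 and 13.77 in tamoxifen controls. The Lce1 genes were high together on the second array of both tamoxifen-treated groups: their median relative to the 6-array mean was -0.04 and 0.55 in the knockdown, against -0.16 and 0.50 in the controls. The Lce1 median was -0.20 without knockdown replicate 2, -0.27 without control replicate 1, 0.32 without knockdown replicate 1 and 0.42 without control replicate 2.

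The 5 Lce3 genes, whose human counterparts are induced when the skin barrier is damaged, were all lower, with a median of -0.63, and 0 of 5 had an unadjusted p under 0.05. Lce3a read 6.52 and 5.93 in knockdown wounds, against 7.70 and 6.71 in tamoxifen controls, the one Lce3 gene with separate groups (-0.98 ± 0.39, SE; limma, adjusted p = 0.482). Lce3a was not detected on knockdown replicate 2. Lce3b read 11.24 and 9.55 in knockdown wounds, against 11.21 and 10.23 in controls, while its other 2 probes differed by -1.15 and -1.96. Replicates differed widely: without knockdown replicate 2 the Lce3 median was -0.04, and without knockdown replicate 1 it was -1.17. Lce6a read 9.91 and 10.66 in knockdown wounds, against 9.86 and 10.94 in controls.

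**Figure D3:**
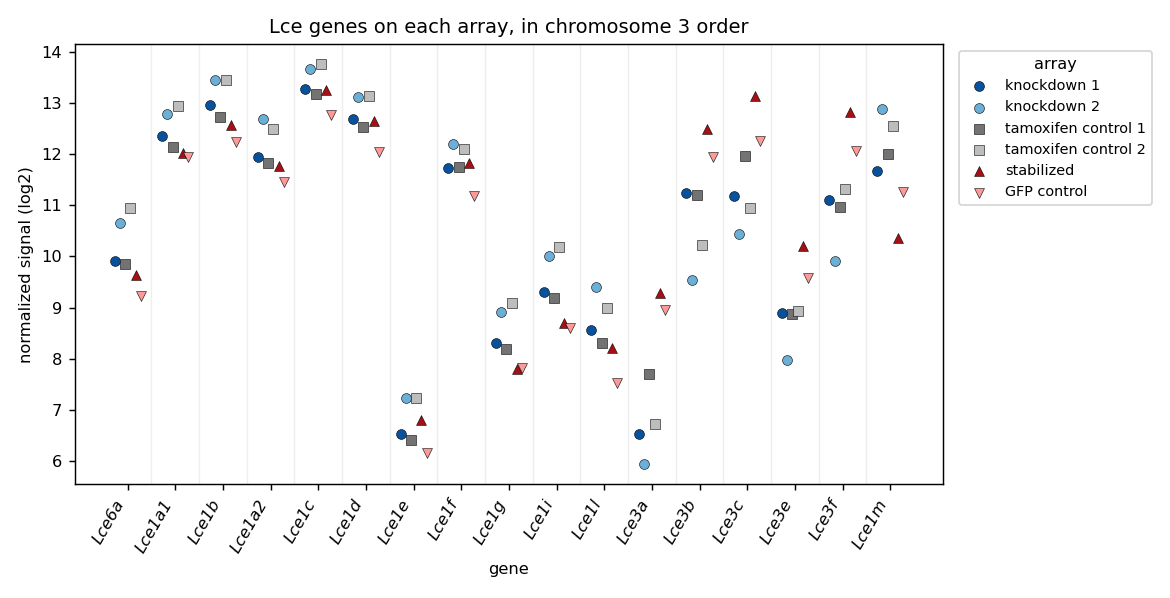
Normalized signal (log2, vertical axis) of the 17 measured Lce genes on each of the 6 arrays, in chromosome 3 order, with the same symbols as for the Sprr genes. In the Lce1 genes the second knockdown and second control arrays lie highest, whereas in the Lce3 genes the stabilized and GFP control arrays do.

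Among the other envelope precursors, Cnfn, a small cysteine-rich envelope protein, read 12.24 and 12.16 in knockdown wounds, against 13.18 and 12.94 in tamoxifen controls. The groups were separate, with a difference of -0.86 ± 0.15 (SE; limma, adjusted p = 0.191), and a second Cnfn probe differed by -0.66. Loricrin, the main protein of the cornified envelope, read 15.30 and 15.19 in knockdown wounds, against 15.11 and 15.45 in controls, a difference of -0.03 ± 0.17. Ivl, an early scaffold of the envelope, read 12.78 and 12.77 in knockdown wounds, against 12.34 and 13.28 in controls. For the plakin Ppl, which ties the envelope to desmosomes and keratin, the difference was -0.24 ± 0.22.

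The single probe of Evpl, the partner of Ppl, read 6.24 and 6.21 in knockdown wounds, against 10.05 and 6.21 in tamoxifen controls, 10.46 in the stabilized wound and 10.63 in the GFP control. Its readings thus fell at 2 levels, and the tamoxifen controls were divided between them. The difference of -1.91 ± 1.23 (SE) rests on control replicate 1. Of the S100 fused-type proteins, which bind keratin or envelope proteins, Flg2 differed by 0.03 ± 0.46 and Rptn by -0.20 ± 0.29, with overlapping groups in both.

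Both transglutaminases, the enzymes that cross-link the envelope, were lower in the knockdown. Tgm3 read 6.43 and 6.38 in knockdown wounds, against 7.16 and 6.83 in tamoxifen controls, a difference of -0.59 ± 0.17 (SE; limma, adjusted p = 0.332). Tgm1, the membrane-bound enzyme, read 9.97 and 10.01 in knockdown wounds, against 10.39 and 10.55 in controls, a difference of -0.48 ± 0.14 (adjusted p = 0.334). The groups were separate in both genes. Both lay at less than 2-fold. Tgm3 was dim, and its difference shrank to -0.29 without background correction and to -0.45 with an offset of 50.

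The group of epidermal proteases and a protease inhibitor gave 0 of 6 genes with an unadjusted p under 0.05. Klk5, Klk7 and Klk8, kallikreins that cut corneodesmosomes, differed by 0.08 ± 0.19, -0.21 ± 0.23 and -0.15 ± 0.15 (SE). Spink5, an inhibitor of epidermal kallikreins, read 8.23 and 8.67 in knockdown wounds, against 8.73 and 9.004 in tamoxifen controls (-0.42 ± 0.21). Its groups were separate by a narrow gap. Casp14, the caspase of the cornified layer, differed by -0.39 ± 0.31 and the filaggrin-processing protease Asprv1 by -0.10 ± 0.20.

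The corneodesmosome protein Cdsn and the secreted proteins Sbsn and Krtdap differed by -0.14 ± 0.22, -0.0019 ± 0.22 and 0.04 ± 0.17 (SE). Dmkn, another secreted epidermal protein, read 15.07 on both knockdown arrays, against 15.14 and 15.33 in tamoxifen controls. Psors1c2 read 6.998 and 7.19 in knockdown wounds, against 7.02 and 9.44 in controls, high on the control array that was also high in hair genes, and without that array the difference was 0.079. The part of hair in the readings of Psors1c2 and Sprr4 was not tested.

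Sfn, the epithelial 14-3-3 protein that restrains the cell cycle and takes part in keratinocyte differentiation, was among the members with the smallest p. It read 11.72 and 11.81 in knockdown wounds, against 12.99 and 12.86 in tamoxifen controls. The groups were far apart relative to their spread, with a difference of -1.16 ± 0.13 (SE; limma, adjusted p = 0.191), a 2.23-fold lower signal. Calm4, a calmodulin-like protein of differentiating keratinocytes, read 15.52 and 15.31 in knockdown wounds, against 15.21 and 15.60 in controls, and the groups overlapped.

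Epidermal marker lists differed unevenly beside these members. Over all genes 46.7% were lower in the knockdown, and 4.4% were lower at an unadjusted p under 0.05. Of 11 wound edge keratinocyte genes 10 were lower in the knockdown (median -0.88), 9 of them at an unadjusted p under 0.05. These included the wound keratin Krt6a (-1.66 ± 0.20, SE) and the gap junction protein Gjb2 (-1.69 ± 0.22). The summed linear signal of this list was 214500 and 216100 in knockdown wounds, against 321600 and 289400 in tamoxifen controls. Of 11 measured basal markers 8 were lower (median -0.39) and 3 higher. Itga6, an integrin chain of hemidesmosomes, differed by -0.79 ± 0.13, and the keratin Krt15 was higher by 0.72 ± 0.34. The summed basal signal was 85470 and 84160 in knockdown wounds, against 83940 and 91880 in controls. Of 9 suprabasal markers 6 were lower (median -0.36), with the desmosomal cadherin Dsc1 at -0.68 ± 0.13 and the keratin Krt2 higher by 2.39 ± 0.29. The suprabasal sum was 84480 and 83770 in knockdown wounds, against 82900 and 87340 in controls. These sums mostly read 1 bright keratin each. Krt14 made up 65.8% to 74.4% of the basal sum and Krt10 72.8% to 77% of the suprabasal sum. Without Krt14 the basal sum was 21880 and 27110 in knockdown wounds, against 25790 and 31390 in controls, and without Krt10 the suprabasal sum was 21320 and 19290 in knockdown wounds, against 19730 and 23750 in controls. The summed Sprr signal was 21460 and 21140 in knockdown wounds, against 71630 and 43690 in controls. Sprr2d and Sprr1b, the brightest of the family, weigh most in this sum. Sprr2d alone read 15.01 and 14.01 in the controls. Of 7 fibroblast markers 6 were lower (median -0.16). Skeletal muscle RNA also differed, with 14 of 14 measured markers higher in the knockdown (median 1.34). No marker in these lists passed over all genes, and their part in the readings of the members was not tested.

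Other genes of cornification, outside the member list, were lower in 37 of 43 measured cases, against 46.7% of all genes, with a median of -0.36. At an unadjusted p under 0.05 there were 13 lower, against 4.4% of all genes, and 1 higher, against 6.24%. None passed over all genes. Stfa1 and Perp are also in the marker lists above. The genes with the smallest p were the kallikrein Klk10 (-1.09 ± 0.16, SE), the ceramide synthase Cers3 (-0.82 ± 0.13), the transcription factor Grhl3, which drives barrier formation (-0.95 ± 0.16), and the protease inhibitor Csta2 (-1.07 ± 0.19), each with adjusted p = 0.191 (limma).

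**Figure D4:**
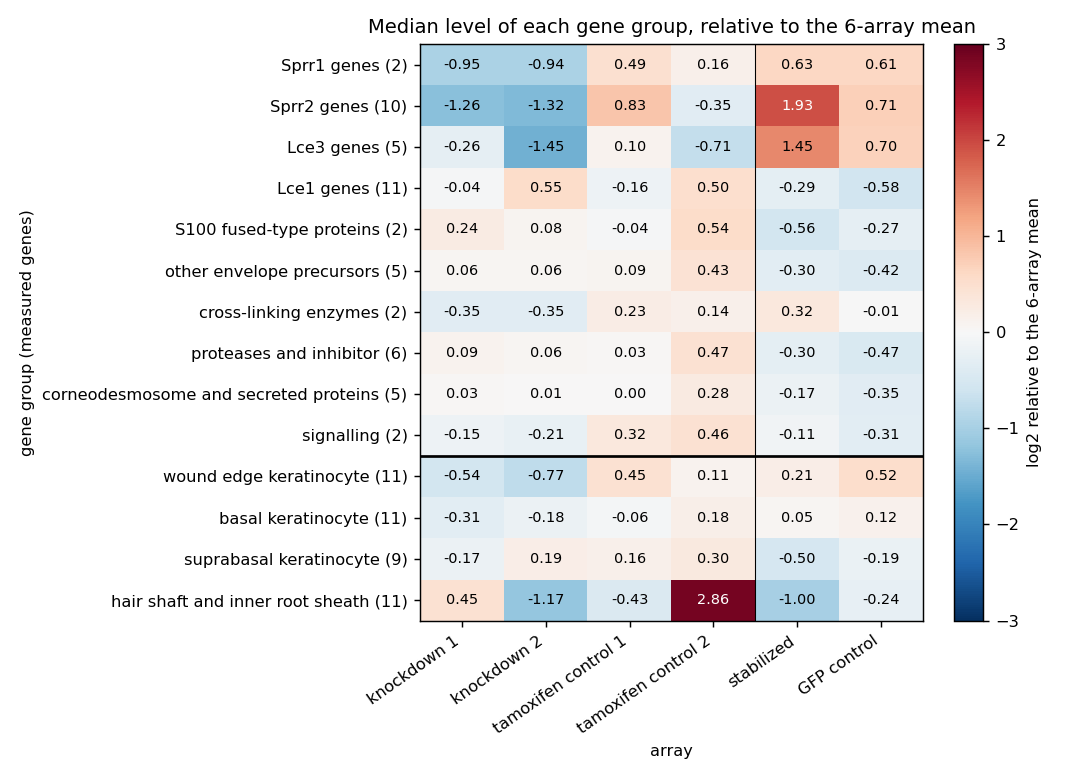
Median log2 level of each gene group on each array, relative to the mean of the 6 arrays, with the number of measured genes in parentheses. Member groups are above the black line and marker lists below it; Sprr2 genes stood at -1.26 and -1.32 in the knockdown, 0.83 and -0.35 in the tamoxifen controls, 1.93 in the stabilized wound and 0.71 in the GFP control, and hair genes at 2.86 on tamoxifen control replicate 2.

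The stabilized wound had higher readings of most Sprr2 genes, Psors1c2 and Cnfn than the GFP control wound. Each of these groups was a single array, so the differences have no replicate check and were not tested. Of the 52 measured members 41 were higher (78.8%), against 54.3% of all genes, and the median log2 difference was 0.34, against 0.04 over all genes. At least 2-fold higher were 6 members (11.5%), against 3.21% of all genes, and 1 member was at least 2-fold lower, against 4.22%. Median scaling over all probes divided the log2 values of each array by a factor, which is not a plain shift, and put the median of all genes at 0.50. With it 16 members were at least 2-fold higher, against 11.8% of all genes, and 0 at least 2-fold lower, against 2.44%.

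Of the 10 Sprr2 genes 9 were higher on the stabilized array. Sprr2e read 12.96 in the stabilized wound, against 11.34 in the GFP control, 3.06-fold higher. Sprr2j-ps read 7.74 in the stabilized wound, against 6.40 in the GFP control, and Sprr2k read 11.13 in the stabilized wound, against 9.86 in the GFP control. Sprr2g read 12.38 in the stabilized wound, against 11.20 in the GFP control. These were the Sprr2 genes past 2-fold, and Sprr2d followed at 15.17 in the stabilized wound, against 14.17 in the GFP control. Sprr2i read 11.90 in the stabilized wound, against 10.93 in the GFP control, 1.96-fold higher.

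The Sprr1 genes did not share this difference. Sprr1a read 12.02 in the stabilized wound, against 12.19 in the GFP control, and Sprr1b read 14.73 in the stabilized wound, against 14.53 in the GFP control. Sprr2h read 9.65 in the stabilized wound, against 9.57 in the GFP control. Sprr4 differed by -0.54. Both adenovirus arrays read above both knockdown arrays for Sprr1a and Sprr1b, but age, genotype and vector also differ between those models.

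Psors1c2, whose human counterpart lies near the corneodesmosin gene in a psoriasis susceptibility region, read 8.24 in the stabilized wound, against 6.41 in the GFP control, 3.56-fold higher. Cnfn read 13.67 in the stabilized wound, against 12.60 in the GFP control, 2.11-fold higher, and its second probe was higher by 0.67. All 5 Lce3 genes were higher, by 0.34 to 0.88, with Lce3c at 13.13 in the stabilized wound, against 12.25 in the GFP control. Of the Lce1 genes 9 of 11 were higher (median 0.32), while Lce1m read 10.37 in the stabilized wound, against 11.27 in the GFP control. Lce1e was not detected in the GFP control and was at least 1.55-fold higher in the stabilized wound.

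Flg2 was the member at least 2-fold lower, at 8.77 in the stabilized wound, against 9.79 in the GFP control, but its second probe was higher by 0.15. Loricrin read 14.69 in the stabilized wound, against 14.35 in the GFP control. Dmkn read 14.97 in the stabilized wound, against 14.75 in the GFP control, and Calm4 read 14.78 in the stabilized wound, against 14.45 in the GFP control. All 3 differed by less than 2-fold. Sfn differed by 0.08, Tgm1 by 0.32 and Tgm3 by 0.34. Spink5 was lower by 0.73 on the log2 scale, reading 7.96 in the stabilized wound, against 8.69 in the GFP control.

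The epidermal marker lists had medians below 0 in this pair. The wound edge list had a median of -0.14, the basal list of -0.04 and the suprabasal list of -0.24, with Krt15 at -1.73 and Krt77 at -1.66. Within the wound edge list the growth factor Hbegf was higher by 1.31 and the antimicrobial protein S100a9 lower, at -1.06. The summed Sprr signal was 91800 in the stabilized wound, against 57850 in the GFP control, and Sprr2d and Sprr1b weigh most in it. The wound edge sum was 301400 in the stabilized wound, against 338900 in the GFP control. Much of that lower sum came from bright S100a9, at 14.62 in the stabilized wound against 15.68, and S100a8, at 15.70 against 15.97. Of the 11 wound edge genes 7 were lower and 4 higher, so the sum does not speak for the whole list. Of 7 fibroblast markers 6 were higher (median 0.49), with the peptidase Dpp4 at 1.26, the same direction as most members. The hair list had a median of -0.74. Of 14 skeletal muscle markers 14 were lower (median -1.87), and 4 of 5 neutrophil markers were at least 2-fold lower, against 4.22% of all genes. Of the other cornification genes 25 of 43 were higher (median 0.09), against 54.3% of all genes. The largest differences among these cornification genes were Csta2 at -2.33 and the interleukin-1 receptor antagonist Il1rn at -2.11. The part of these lists in the readings of the members was not tested.

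**Figure D5:**
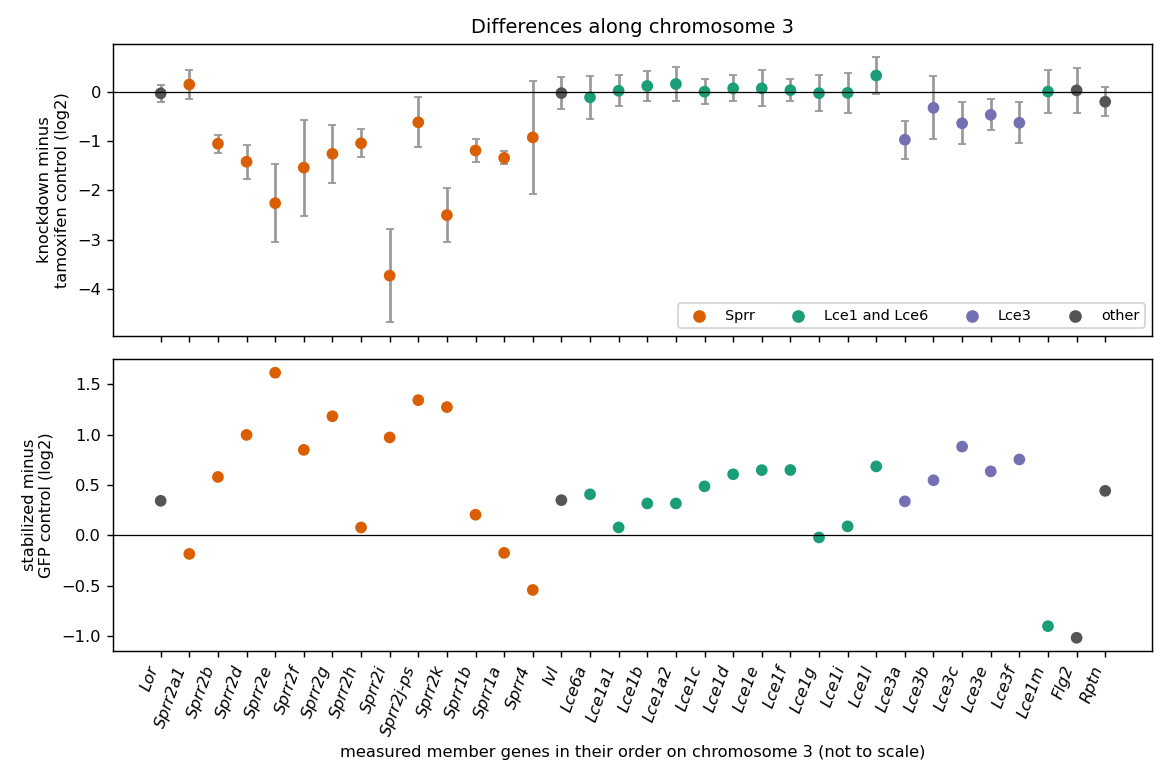
Log2 differences of the 34 measured member genes on chromosome 3, in gene order (not to scale): knockdown minus tamoxifen control with its standard error in the upper panel and stabilized minus GFP control, without error because each group had 1 array, in the lower panel. The Sprr genes from Sprr2b to Sprr1a lie between -0.62 and -3.73 above, where Sprr2b and Sprr2j-ps rest on undetected knockdown readings, and the Lce1 genes lie near 0 there.

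In comparisons that share no array, 6 of the 7 Sprr2 genes detected on every array were lower in the knockdown and higher in the stabilized wound, while Sprr2a1 read the other way, at 0.14 and -0.18. Of all genes 46.7% were lower in the knockdown and 54.3% higher in the stabilized wound, and the share with both was not computed. The Sprr2 genes are close neighbours whose probes may bind the RNA of another copy, so they are not separate observations. Each adenovirus group was also a single array. Among the 6, Sprr2h was higher by only 0.08. Without tamoxifen control replicate 1 the knockdown differences of Sprr2f and Sprr2g were -0.055 and -0.37. Over the 52 members the Spearman correlation of both differences was -0.321, and over all genes it was -0.145, as a description of genes that share arrays and scaling. A slope per step of β-catenin was also fitted to the 6 arrays together, coding knockdown arrays as -1, either kind of control as 0 and the stabilized array as 1, with a term for the mouse model. It uses the same arrays as the comparisons above and is not independent of them. No member and 0% of all genes passed (limma, adjusted over all genes). At an unadjusted p under 0.05, 13 members had a positive slope, against 5.13% of all genes, and 0 a negative slope, against 5.49%. Among the 47 members detected on all arrays 11 had a positive slope at that p, and the share over all such genes was not computed. The count changed when single arrays were left out, as given at the end.

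Cnfn had the smallest adjusted p of the members in the trend, at 0.93 ± 0.13 (SE) per step (limma, adjusted p = 0.123). Sprr2d was at 1.28 ± 0.28 and Sprr2k at 2.09 ± 0.48 (adjusted p = 0.215 and 0.247). No slope is given for Sprr2b, whose knockdown readings are background. Loricrin was at 0.14 ± 0.15, and the Lce1 genes had a median slope of 0.03. With median scaling over passing probes, which subtracts a value from each array and was chosen after seeing the data, 0 members passed in the trend. With the scaling that divided the log2 values and put the median of all genes at 0.50 in the stabilized wound, 6 members passed (11.5%), against 1.65% of all genes. They were Sprr2k (limma, adjusted p = 0.00201), Sprr2e (0.0057), Sprr2d (0.0214) and Sprr2g (0.043), and Sprr2i and Sprr2b, whose slopes rest partly on undetected knockdown readings.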

How the data were processed

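Per the file headers, the main table deposited by the authors holds a mean bead intensity per probe (linear, not scaled between arrays) with its detection p-value. The authors' other table is in log2 units. The submitters' processing notes list R 2.14 and limma, without settings, and the scanner software was not stated. No slide or scan day was given, so no batch was tested. Replicates are called biological in the labels.

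Intensities were background-corrected with neqc (offset 16), log2-transformed and quantile-normalized with limma 3.58.1 in R 4.3.3. This removes shifts shared by most genes and shrinks differences of dim probes. The platform annotation gave a single gene for 34885 of 45281 probes, and 17410 probes passed the detection filter. Of 74 member probes 71 passed. For 14 members several probes passed, and in 11 of them the probes had the same sign in the knockdown. Levels of different probes were not compared.

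Groups came from the labels. The number of arrays limits the precision. RefSeq promoter windows ran from 250 bases before to 50 after the start. Limma's lmFit and eBayes were fitted over all 10266 genes and checked on simulated data. "At least" folds set the brighter group against the lowest detected signal. Alternatives were scaling, background, offset, the authors' log2 values, detection filter, probe rule, replicate block, arrays in the fit and leaving out arrays. Members and lists were chosen with earlier results of these data known. All measured members could be named; values on every array were due for 10 with the smallest p in the knockdown, 10 with the largest difference in the pair and the 3 brightest. Other lists gave up to 4 and 2 genes by the same ranks.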

Additional observations from a re-analysis of the deposited data

How the results depend on the processing

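No member passed in the knockdown under any alternative run. The lower members at an unadjusted p under 0.05 numbered 10 to 16 under the settings that kept all arrays, and the Sprr median lay between -1.30 and -1.11 there. With median scaling over all probes, the median of all genes was 0.10 in the knockdown and 0.50 in the stabilized wound. Under it 6 members passed in the trend, and 21 (40.4%) had positive slopes at an unadjusted p under 0.05, against 4.69% of all genes. In the stabilized wound 16 members were then at least 2-fold higher and 0 at least 2-fold lower, with a member median of 0.74. The 1 member at least 2-fold lower became 0 without background correction, with an offset of 50, with the mean of detected probes, and with median scaling over passing probes, which was chosen after seeing the data.

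Leaving out 1 array at a time gave 7 to 16 members at least 2-fold lower in the knockdown, 8 to 17 lower and 0 to 1 higher at an unadjusted p under 0.05, member medians of -0.40 to -0.072 and Sprr medians of -1.50 to -0.89. In the trend it gave 7 to 14 positive and 0 to 2 negative slopes. Shares over all genes were not computed for the counts with an array left out. The deviations of same-numbered arrays correlated at 0.0385, so the numbers are not taken to pair the samples. With a replicate block 16 members were lower at an unadjusted p under 0.05, against 12 without it, and 0 passed. Of 386 single-gene values under alternatives 380 kept their sign. These genes were picked for a small p, a large difference or brightness in the same data. Some alternatives also leave the difference of a gene unchanged, so this count is no independent check. The causes were not tested. Signal over background limits 5 members, which were not detected on every array.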
